A study of Homo sapiens with 9 samples.

Results

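The transcriptome of A498 cells depleted of BMAL1 was compared with that of cells carrying a control hairpin. The comparison used 6 of the 9 libraries in the series, the 3 labelled shBMAL1 and the 3 labelled shControl, chosen by their column names. The other 3 libraries, labelled shARNT, came from cells depleted of ARNT and entered the shared estimate of the spread and 1 direct contrast. A498 is a long-used cell line derived from clear cell renal cell carcinoma (ccRCC), a human kidney cancer. All groups were infected with lentivirus carrying a short hairpin RNA (shRNA) and selected with puromycin, so the controls shared infection and selection with the depleted cells. The shControl group carried a non-targeting hairpin and is labelled WT, the shBMAL1 group is labelled BMAL1 knockdown, and the shARNT group is labelled ARNT knockdown. Each target was depleted with a single hairpin, so the loss of BMAL1 and any other effect of that hairpin cannot be told apart. Each group held 3 biological replicates. No source used here says how the replicate cultures were separated, so the p-values measure the spread between these libraries. Of 27673 genes, 15551 had enough counts to be tested.

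BMAL1 is a bHLH-PAS transcription factor that pairs with CLOCK, binds E-box sequences and drives the circadian feedback loop, in which the repressors PER and CRY shut down their own activator. In ccRCC, loss of the VHL tumor suppressor stabilizes HIF2α, and bHLH-PAS partners of HIF2α are therefore of interest. The account below concerns the gene programs outside the hypoxia, HIF and clock genes, such as cell division, protein synthesis, growth factor signaling and inflammatory signaling.

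Depletion of the target was checked in each library. The BMAL1 gene, ARNTL in the table (chromosome 11, 13298199 to 13408813, GRCh37), had 556, 524 and 536 counts in shControl and 185, 191 and 140 counts in shBMAL1. All 3 depleted libraries were below every control library, and the mean level was 30.9% of control (log2 fold change -1.70, SE 0.10, adjusted p = 1.94e-11, by the quasi-likelihood test of edgeR, adjusted by the Benjamini-Hochberg method over the genes tested, as for every adjusted p given here). Total counts were even, between 35269870 and 35472013 in these 6 libraries. Markers of renal epithelium and of this cancer were present, including PAX8, KRT8, KRT18, VIM and CA9, while the proximal tubule receptor LRP2 had 0 counts in each library. Of the 14 such markers tested, 10 fell and 4 rose, with a median log2 fold change of -0.44. CA9 fell by 1.34 and VIM by 0.47 on the log2 scale, and KRT19 rose (0.97). Of the markers of other cell types, CD3E, CDH5, CLDN5, HBB, HBA1 and LUM had 0 counts in all 6 libraries, and PTPRC and PECAM1 did not exceed 12 counts. The leukocyte gene CD68 had 58994 to 63748 counts in these libraries and 5379 to 5871 counts in shARNT. It is a neighbor of the abundant gene EIF4A1 in the genome, and whether reads of that gene were counted for CD68 was not tested. Neural markers were present: NEFL had 10078, 9752 and 9818 counts in shControl and 5936, 6283 and 5985 counts in shBMAL1 and fell by 0.75 on the log2 scale, NEFM rose (0.40), and GFAP, which did not pass the test, had 124 to 153 counts. The part of these markers in the results below was not tested. The pre-ribosomal RNA gene RNA45S5 held 0.257% of the counts in shControl replicate 1 and 0.829% to 1.07% in the other 5 libraries.

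A large part of the transcriptome differed. At an adjusted p under 0.1, 4895 genes were lower (31.5% of those tested) and 4956 were higher (31.9%), so 63.3% of all genes were called. Most changes were small, with a median absolute log2 fold change of 0.32. A call together with a change of at least 2-fold was made for 856 lower genes (5.5%) and 736 higher genes (4.73%). CPM values, counts divided by library sizes that were scaled with trimmed means of M values, did not overlap between the groups for 4789 lower genes (30.8%) and 4887 higher genes (31.4%). Over the whole set the median was -0.0015 on the log2 scale. Gene groups are read below against these shares. The plot of all genes by level and fold change shows calls in both directions at every level.

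**Figure D1:**
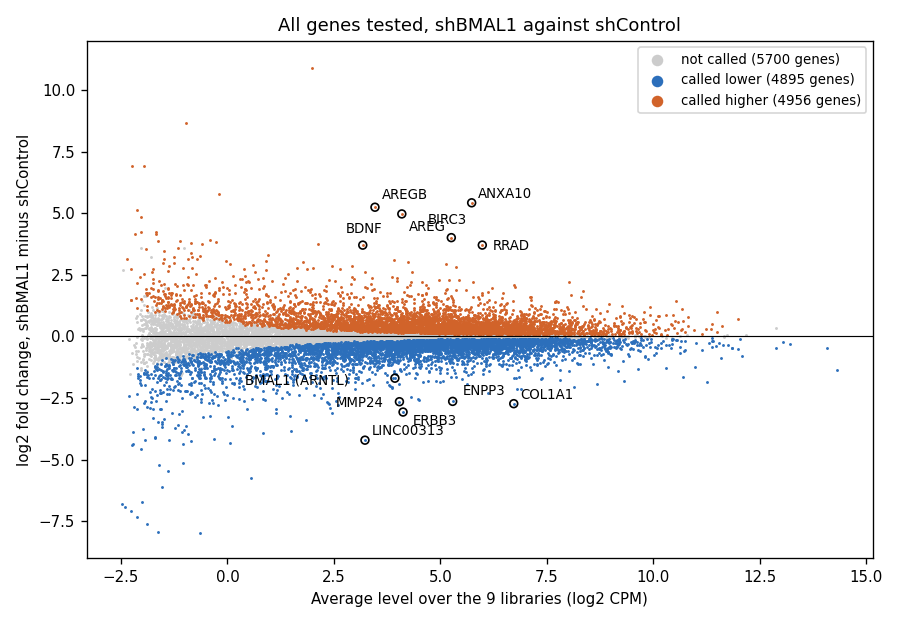
Log2 fold change between shBMAL1 and shControl (vertical axis) against average level in log2 CPM (horizontal axis) for the 15551 genes tested, colored by call at an adjusted p under 0.1. BMAL1 and several of the genes with the largest changes are circled, with ANXA10 at 5.42 and LINC00313 at -4.21.

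Among genes with an average of at least 3 log2 CPM and no overlap between the groups, the 12 largest falls included receptors, matrix genes and metabolic genes. The long noncoding RNA LINC00313 (chromosome 21, 44881840 to 44899414, minus strand, GRCh37) had 18.2, 20.6 and 20.4 CPM in shControl and 0.965, 1.16 and 1.06 CPM in shBMAL1 (log2 fold change -4.21, SE 0.13, adjusted p = 1.17e-15). Its neighbor on the same strand, the salt-inducible kinase gene SIK1 (44834363 to 44847011), fell by 2.12 on the log2 scale. ERBB3, a kinase-impaired receptor for neuregulins (chromosome 12, 56470583 to 56497289), had 41.3, 41.3 and 43.96 CPM in shControl and 4.97, 4.93 and 5.17 CPM in shBMAL1 (log2 fold change -3.07, SE 0.09, adjusted p = 7.54e-16). COL1A1, the alpha 1 chain of type I collagen (chromosome 17, 48261462 to 48278993), had 229, 239 and 242 CPM in shControl and 36.8, 33.7 and 36.6 CPM in shBMAL1 (log2 fold change -2.73, SE 0.06, adjusted p = 1.93e-17). Within each of these genes, every depleted library was far below the lowest control library. FGFR3, another receptor tyrosine kinase, fell by 2.55 on the log2 scale and the P-cadherin gene CDH3 fell by 2.46. The membrane metalloproteinase MMP24 had 21.3, 24.5 and 23.1 CPM in shControl and 4.36, 3.54 and 3.09 CPM in shBMAL1, and the ectonucleotidase ENPP3, which is abundant in renal carcinoma, fell by 2.64 on the log2 scale. MLXIPL, which encodes the glucose-responsive lipogenic factor ChREBP, had 52.3, 64.00 and 57.5 CPM in shControl and 10.9, 9.84 and 8.26 CPM in shBMAL1 (log2 fold change -2.59, SE 0.09, adjusted p = 7.45e-15). The remaining members were the quinone oxidoreductase-like enzyme TP53I3 (-2.31), the phospholipid flippase ATP8B2 (-2.15) and CPS1, the first enzyme of the urea cycle (-2.08).

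The 12 largest rises were led by ANXA10, a member of the annexin family of calcium-dependent membrane-binding proteins (chromosome 4, 169013688 to 169108887). ANXA10 had 3.15, 3.10 and 3.84 CPM in shControl and 148, 136 and 149 CPM in shBMAL1, a 42.8-fold difference (log2 fold change 5.42, SE 0.08, adjusted p = 3.2e-20). Amphiregulin, a ligand of the EGF receptor, was listed under AREG (chromosome 4, 75310853 to 75320722) and under its near-identical copy AREGB (75480629 to 75490486), and reads may have been split between them. AREG had 1.89, 1.31 and 1.36 CPM in shControl and 51.9, 47.3 and 44.1 CPM in shBMAL1, and its log2 fold change was 4.97 (SE 0.12, adjusted p = 1.93e-17). AREGB was at 1.11, 0.608 and 0.727 CPM in shControl and 35.97, 29.6 and 27.3 CPM in shBMAL1, so both copies were below 2 CPM in every control library and far above that in every depleted library. BIRC3, a ubiquitin ligase that acts in the NF-κB pathway, had 4.84, 6.38 and 4.93 CPM in shControl and 94.6, 82.6 and 82.5 CPM in shBMAL1 (log2 fold change 4.01, SE 0.09, adjusted p = 9.33e-18). RRAD, a small GTPase that inhibits calcium channels, had 12.4, 12.1 and 10.9 CPM in shControl and 143, 164 and 154 CPM in shBMAL1 (log2 fold change 3.70, SE 0.06, adjusted p = 3.19e-19). BDNF, a neurotrophin, had 0.991, 0.911 and 0.545 CPM in shControl and 12.02, 8.91 and 11.1 CPM in shBMAL1 (log2 fold change 3.70, SE 0.18, adjusted p = 8.88e-13). The other 6 were the tissue plasminogen activator PLAT (log2 fold change 3.10), the co-chaperone DNAJC12 (3.03), the adenosine-producing ectonucleotidase NT5E (2.93), the matrix protein PAPLN (2.82), the glucose transporter SLC2A12 (2.62) and the G protein regulator RGS2 (2.61). The absence of overlap between the groups was a condition for naming these 24 genes and is not a result.

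**Figure D2:**
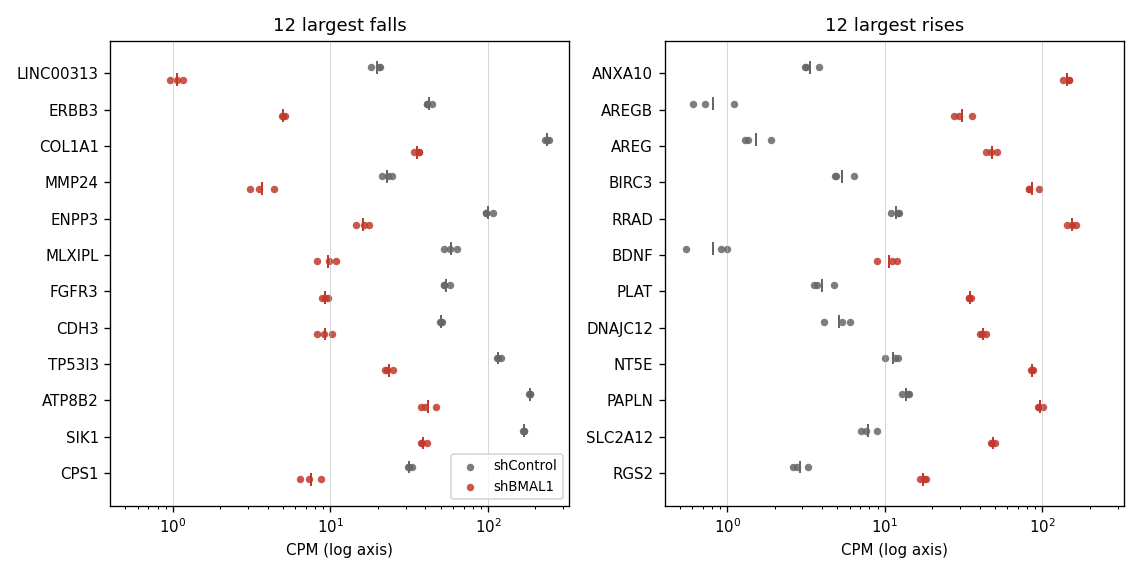
CPM on a log axis in each shControl and shBMAL1 library for the 12 largest falls (left) and the 12 largest rises (right), with a bar at each group's mean. The 3 points of each group lie together and the groups do not overlap for any of the genes, as in BIRC3 with 82.5 to 94.6 CPM in shBMAL1 and 4.84 to 6.38 CPM in shControl.

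Gene programs were described with 50 lists, each by its number of called members and its median log2 fold change. In total, 22 lists had a median below 0 and 28 had a median above 0. Of these lists, which leave out the markers of cell identity, and among those with at least 10 tested members, the lowest medians belonged to DNA replication and E2F targets (-0.39), Notch signaling (-0.38), mitosis (-0.35), mitochondrially encoded genes (-0.34) and cytosolic ribosomal proteins (-0.30). The highest belonged to the NF-κB pathway (0.73), the EGF family and its receptors (0.56), MHC class I presentation (0.42), chemokines, interleukins and their receptors (0.38) and the NRF2 pathway (0.29). Per library, the 3 shBMAL1 medians of each of these 10 lists lay on 1 side of the 3 shControl medians. The 10 lists were chosen by medians of the same values, so this separation is not a separate result. GC content moved with the fold changes. With the genes divided into 4 equal sets by the GC content of their transcripts, the median was 0.08 in the set with the lowest GC content and -0.10 in the set with the highest. After the trend with GC content and length was removed, the medians of all 10 lists kept their sign.

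**Figure D3:**
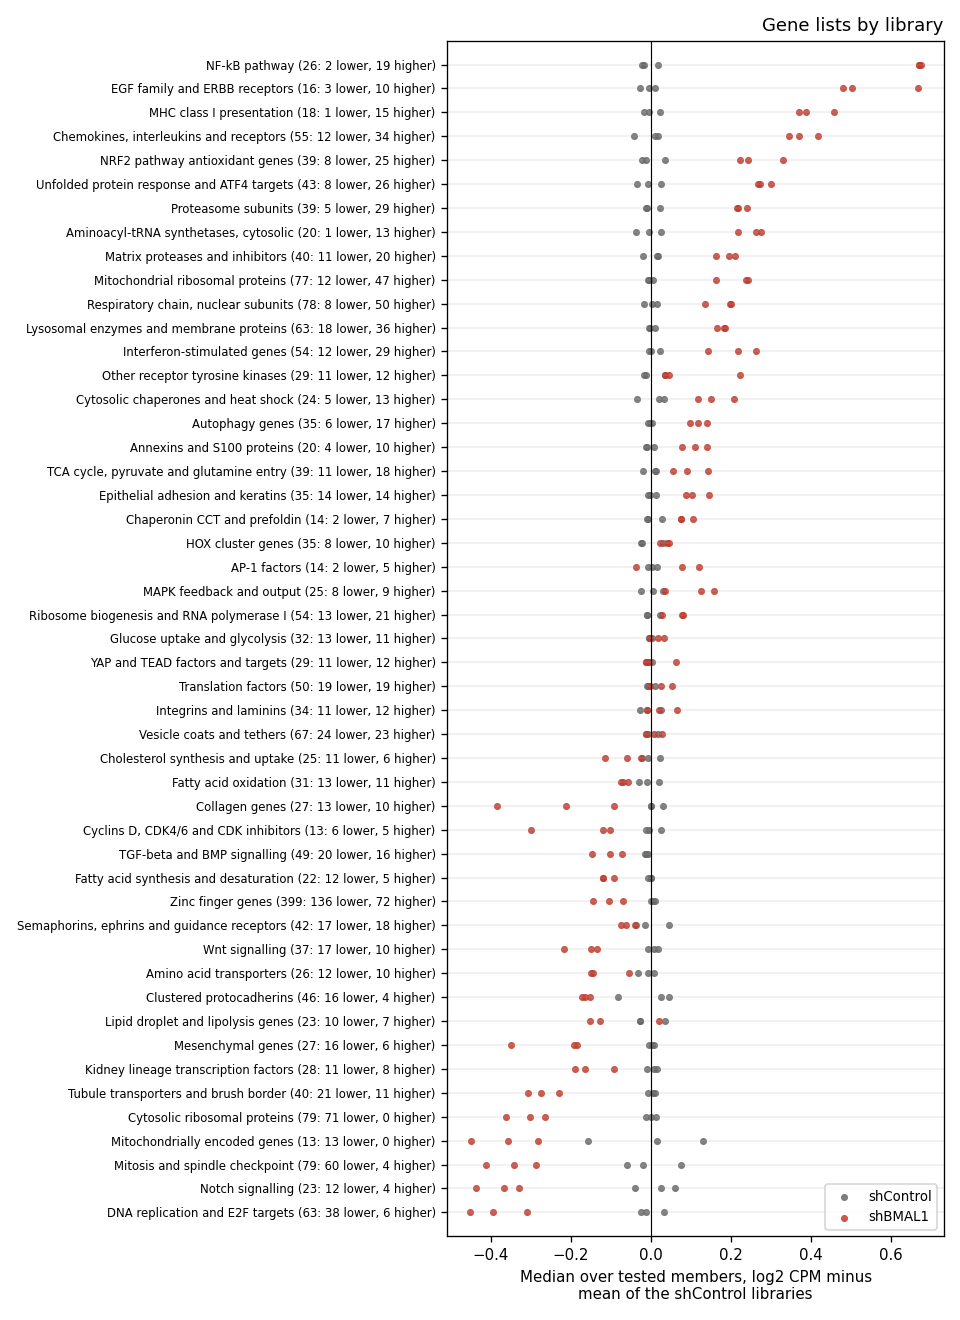
Median over the tested members of each list, in log2 CPM relative to the mean of the shControl libraries, with 1 point per library. Labels give the number of tested members and of members called lower and higher, and the NF-κB medians of 0.67, 0.68 and 0.67 in the shBMAL1 libraries lie farthest from the controls.

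**Figure D4:**
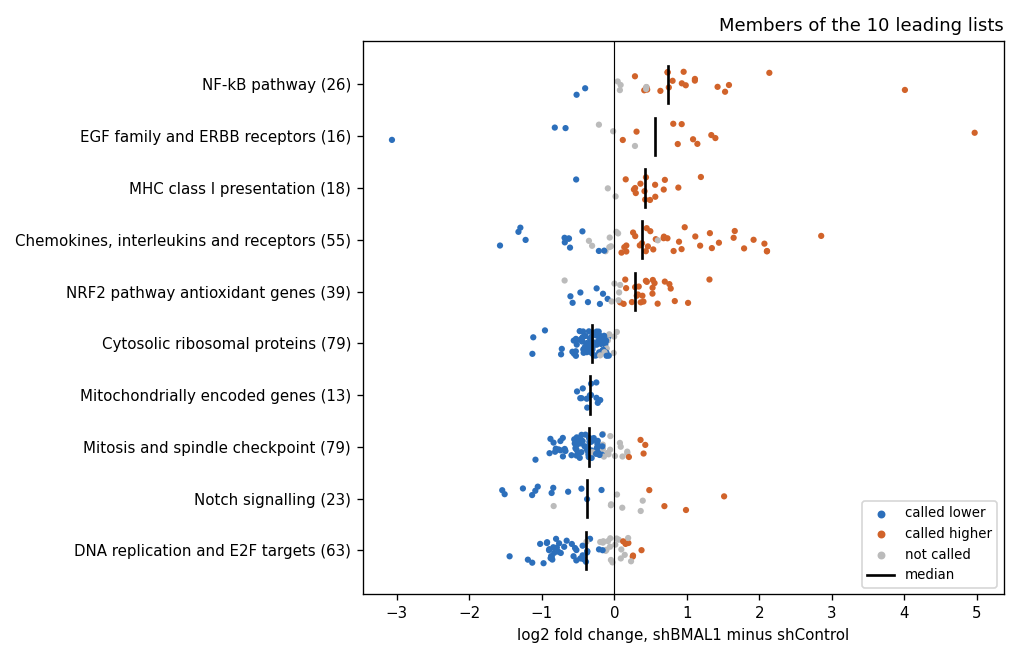
Log2 fold changes of the tested members of the 10 lists with the lowest and the highest medians, colored by call, with a black bar at each list's median. Ribosomal protein and mitosis genes form compact groups mostly below 0, whereas chemokine and EGF family genes spread from below -1 to above 2.

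Genes of DNA replication were lower as a group. In the DNA replication and E2F list, 38 of 63 tested members fell (60.3%, against 31.5% of all genes) and 6 rose. The number that rose ranged from 3 to 8 without 1 library. It was 3 without shBMAL1 replicate 2 and 4 without shBMAL1 replicate 1. Replication starts when the origin recognition complex, CDC6 and CDT1 load the MCM helicase, which CDC45 and GINS then activate. Of the licensing genes, 11 of 17 fell and 2 rose. The helicase subunit MCM4 had 116, 108 and 108 CPM in shControl and 48.8, 49.6 and 46.9 CPM in shBMAL1 (log2 fold change -1.19, SE 0.05, adjusted p = 1.58e-13). MCM2 had 94.1, 91.1 and 90.1 CPM in shControl and 50.4, 50.04 and 46.9 CPM in shBMAL1 (log2 fold change -0.90, SE 0.05, adjusted p = 3.29e-12). Every depleted library was below every control library for both subunits, which were named for a small p. CDT1, named after its values were seen, had 19.5, 18.3 and 19.4 CPM in shControl and 8.83, 9.09 and 8.17 CPM in shBMAL1 (log2 fold change -1.13, SE 0.08, adjusted p = 3.71e-10). Genes of GINS and the replication fork fell for 12 of 20 members and the polymerase genes for 6 of 11. In nucleotide supply, 4 of 6 fell and none rose. RRM1, the large subunit of ribonucleotide reductase, had 136, 131 and 123 CPM in shControl and 71.9, 73.5 and 70.00 CPM in shBMAL1 (log2 fold change -0.86, SE 0.05, adjusted p = 3.19e-12). Of the E2F factors, cyclins E and associated genes, 5 of 9 fell and none rose. The exceptions that rose were small and included the origin subunits ORC4 (0.19) and ORC5 (0.26) and the single-strand binding protein RPA2 (0.37).

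Mitotic genes changed in the same direction. In the mitosis list, 60 of 79 tested members fell (75.9%) and 4 rose. Kinases and cyclins fell for 11 of 14 members, checkpoint and anaphase-promoting complex genes for 9 of 12, kinetochore genes for 12 of 16, spindle genes for 18 of 25, and condensin and chromosomal passenger genes for 10 of 12. Separase, encoded by ESPL1, cleaves cohesin at anaphase, and it had 31.03, 30.4 and 33.9 CPM in shControl and 16.5, 18.1 and 16.7 CPM in shBMAL1 (log2 fold change -0.89, SE 0.07, adjusted p = 5.69e-10). CDC25B, a phosphatase that activates CDK1, had 55.96, 59.5 and 67.5 CPM in shControl and 32.8, 34.1 and 32.3 CPM in shBMAL1 (log2 fold change -0.88, SE 0.06, adjusted p = 8.11e-11). ASPM, a spindle pole protein, had 105, 97.7 and 93.6 CPM in shControl and 58.4, 59.1 and 63.6 CPM in shBMAL1 (log2 fold change -0.71, SE 0.05, adjusted p = 2.69e-10). No depleted library reached the control range for these 3 genes, which were named for a small p. The members that rose most clearly were the cytokinesis factor ECT2 (0.36), securin, encoded by PTTG1 (0.40), and the kinesin KIF18A (0.43). Among the cyclins D and the CDKs listed with them, CDK2 (-0.76), CCND3 (-0.68), CCND1 (-0.43) and CDK4 (-0.36) fell, and CDK6 rose (1.32). Of the CDK inhibitors, CDKN1A, which encodes p21, had 82.2, 80.6 and 83.6 CPM in shControl and 164, 165 and 185 CPM in shBMAL1 (log2 fold change 1.06, SE 0.05, adjusted p = 2.5e-13). CDKN1B, which encodes p27, rose by 0.51 on the log2 scale. Bulk RNA does not separate fewer dividing cells from less RNA per dividing cell.

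The promoters of cell division genes are known for E2F sites and for the CHR element, through which the DREAM complex and B-MYB act. CDT1 and ESPL1 are shown because each fell and carries 1 of these motifs, with the motif letters in capitals, read 5′ to 3′ on the gene's own strand for the 250 bases before the RefSeq start site (GRCh38.p14).
CDT1, chr16:88803539-88803788, plus strand, E2F letters TTTNNCGC: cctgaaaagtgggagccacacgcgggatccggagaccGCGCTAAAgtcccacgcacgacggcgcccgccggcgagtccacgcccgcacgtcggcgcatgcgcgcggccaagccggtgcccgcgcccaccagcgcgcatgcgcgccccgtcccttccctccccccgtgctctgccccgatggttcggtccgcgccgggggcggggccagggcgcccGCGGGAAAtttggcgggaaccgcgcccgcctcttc
ESPL1, chr12:53268049-53268298, plus strand, CHR letters TTTGAA: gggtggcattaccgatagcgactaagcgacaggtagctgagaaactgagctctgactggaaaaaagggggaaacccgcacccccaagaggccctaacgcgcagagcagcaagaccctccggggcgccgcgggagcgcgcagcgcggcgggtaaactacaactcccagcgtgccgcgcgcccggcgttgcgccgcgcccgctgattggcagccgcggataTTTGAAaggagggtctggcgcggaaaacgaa
Both strands were searched. CDT1 had 2 matches, starting 213 and 35 bases before the start site, and ESPL1 had 1, starting 31 bases before it. Among the 55 replication genes with a listed promoter (87.3% of those tested), 24 held the E2F letters (43.6%), against 10.9% of the 11639 tested genes with a listed promoter. Of these 24, 13 fell and none rose, while 38 of 63 fell and 6 rose in the whole list. Among 67 mitosis genes (84.8%), 31 held the CHR letters (46.3%, against 12.4% of all), and 24 of the 31 fell while 2 rose. In the whole mitosis list, 60 of 79 fell and 4 rose. A match describes letters in this window and is not evidence of a bound factor. Whether members with the letters fell more often than the other members was not tested.

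Notch signaling had a low median but mixed members. Notch receptors are cut after binding Delta or Jagged ligands on a neighboring cell, and the released domain acts with RBPJ and Mastermind proteins to induce HES and HEY genes. Of 23 tested genes, 12 fell (52.2%) and 4 rose. Of the 4 ligands, 3 fell, led by JAG1 with 125, 113 and 119.7 CPM in shControl and 57.3, 55.1 and 50.5 CPM in shBMAL1 (log2 fold change -1.13, SE 0.06, adjusted p = 1.83e-12). The receptor NOTCH1 had 36.1, 32.5 and 33.6 CPM in shControl and 19.01, 18.1 and 18.96 CPM in shBMAL1 (log2 fold change -0.87, SE 0.06, adjusted p = 4.41e-10), and MFNG, a glycosyltransferase that modifies Notch receptors, had 22.2, 25.7 and 27.8 CPM in shControl and 8.72, 9.23 and 7.94 CPM in shBMAL1 (log2 fold change -1.55, SE 0.10, adjusted p = 3.85e-11). The 3 Mastermind genes, which encode coactivators, rose, with log2 fold changes of 0.69 for MAML1, 0.48 for MAML2 and 0.99 for MAML3. Of 6 targets 3 fell and 1 rose, all named after their values were seen. HES1 (-0.38), HES4 (-1.26) and HEYL (-1.51) fell. HEY1 rose (1.51) but was low, with 5, 2 and 7 counts in shControl and 18, 14 and 10 counts in shBMAL1. The list's median was -0.18 when genes with low counts were kept in the test.

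Cytosolic ribosomal proteins, which build the translating ribosome, were lower in nearly every case. Of 79 genes, 71 fell (89.9%) and none rose, 42 of 47 in the large subunit and 29 of 32 in the small subunit. The lowest p-values belonged to RPL27A, RPS16 and RPL10. RPL27A had 255, 258 and 266 CPM in shControl and 116, 126 and 117 CPM in shBMAL1 (log2 fold change -1.12, SE 0.04, adjusted p = 1.05e-14) and RPS16 had 511, 504 and 505 CPM in shControl and 218, 231 and 245 CPM in shBMAL1 (log2 fold change -1.13, SE 0.04, adjusted p = 3.69e-14). RPL10 had 459, 442 and 420.0 CPM in shControl and 224, 227 and 229 CPM in shBMAL1 (log2 fold change -0.96, SE 0.04, adjusted p = 1.37e-13). These 3 genes were named for their small p, so their separation between the groups is not a result. The median of the whole list was -0.30. Together these genes held 3.65% to 3.76% of all counts in shControl and 2.88% to 3.12% in shBMAL1. The elongation factor EEF1A1 had 2769, 2736 and 2677 CPM in shControl and 840.4, 904 and 848 CPM in shBMAL1 (log2 fold change -1.66, SE 0.04, adjusted p = 7.99e-18). Ribosomal protein and elongation factor genes have many processed pseudogenes, and the handling of reads with several alignments was not stated, so single values are uncertain. Elsewhere in translation, 19 of 50 factors fell and 19 rose (38% each, against 31.5% and 31.9% of all genes). EIF4E2, a cap-binding protein that also acts in hypoxic translation, had 37.3, 37.7 and 34.8 CPM in shControl and 102, 110.2 and 111 CPM in shBMAL1 (log2 fold change 1.56, SE 0.06, adjusted p = 8.9e-15), and the ribosome biogenesis list had 13 lower and 21 higher members of 54.

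Mitochondrial transcripts fell, whereas most nuclear genes of the respiratory chain and the mitochondrial ribosome rose. This did not hold for every list of mitochondrial proteins. In fatty acid oxidation 13 of 31 genes fell and 11 rose (median -0.07). All 13 protein genes of the mitochondrial genome were called lower, although the libraries overlapped for 5 of them. CYTB, a subunit of complex III, had 4499.8, 5353 and 5430.4 CPM in shControl and 3650.4, 3225 and 3816 CPM in shBMAL1 (log2 fold change -0.52, SE 0.06, adjusted p = 4.11e-07), and COX1 of complex IV had 19246, 24415 and 22940.2 CPM in shControl and 16620.4, 15459.9 and 15974 CPM in shBMAL1 (log2 fold change -0.47, SE 0.06, adjusted p = 3.02e-06). The 13 genes took 6.03% to 7.34% of the counts in shControl and 5.10% to 5.67% in shBMAL1. The mitochondrial ribosomal RNA genes RNR1 and RNR2, named after their values were seen, held 2.46% to 2.67% of the counts in shControl and 1.04% to 1.06% in shBMAL1. Their share was 2.59% to 2.99% with shARNT. By contrast, 50 of 78 nuclear genes of the respiratory chain rose (64.1%) and 8 fell, with a median of 0.18. Among them, NDUFS1 of complex I rose by 0.39 and ATP5A1 of the ATP synthase by 0.41 on the log2 scale, whereas the complex I gene NDUFV1 had 123, 126 and 124 CPM in shControl and 62.3, 66.3 and 63.4 CPM in shBMAL1 (log2 fold change -0.96, SE 0.04, adjusted p = 3.34e-13). COX7C of complex IV had 11.8, 12.03 and 11.6 CPM in shControl and 41.2, 44.4 and 44.3 CPM in shBMAL1 (log2 fold change 1.87, SE 0.06, adjusted p = 4.4e-15), a single-gene value that pseudogene copies may affect. Mitochondrial ribosomal proteins also rose for 47 of 77 genes (61%) and fell for 12. MRPS6 had 90.9, 90.8 and 98.9 CPM in shControl and 270.3, 285 and 301 CPM in shBMAL1 (log2 fold change 1.61, SE 0.06, adjusted p = 4.47e-15), and MRPS27 was the strongest exception (log2 fold change -1.24, SE 0.06, adjusted p = 2.54e-12).

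Genes of the NF-κB pathway had the highest median. NF-κB factors are held in the cytoplasm by IκB proteins, and active NF-κB induces its own inhibitors together with cytokines, adhesion molecules and survival genes. Of 26 tested genes, 19 rose (73.1%, against 31.9% of all genes) and 2 fell. All 11 inhibitors and feedback genes rose, with a median of 0.95. Besides BIRC3, NFKBIA and TNFAIP3 were named after their values were seen. NFKBIA, which encodes IκBα, had 16.2, 12.7 and 14.2 CPM in shControl and 42.6, 43.3 and 42.9 CPM in shBMAL1 (log2 fold change 1.58, SE 0.09, adjusted p = 8.06e-12). TNFAIP3, which encodes the ubiquitin-editing enzyme A20, had 7.93, 6.56 and 6.96 CPM in shControl and 20.6, 17.5 and 19.5 CPM in shBMAL1 (log2 fold change 1.42, SE 0.11, adjusted p = 1.48e-09). In both, the lowest depleted library was more than 2-fold above the highest control library. Of the 5 factors, REL fell (-0.52), RELB (0.63) and NFKB2 (0.44), named after their values were seen, rose, and the median was 0.09. Of the 10 targets, 6 rose. The adhesion molecule VCAM1 had 173, 164 and 173 CPM in shControl and 365, 373 and 362 CPM in shBMAL1 (log2 fold change 1.11, SE 0.04, adjusted p = 1.51e-14), and SOD2, the mitochondrial superoxide dismutase, had 92.04, 95.96 and 89.4 CPM in shControl and 186, 205 and 208 CPM in shBMAL1 (log2 fold change 1.11, SE 0.05, adjusted p = 1.47e-13). The complement component C3 fell (-0.40).

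The promoters of BIRC3, NFKBIA and TNFAIP3 are shown because each rose and holds κB letters, here GGG, any 2 bases and then TTTCC. Capitals mark the match on either strand, in the 250 bases before the RefSeq start site (GRCh38.p14), 5′ to 3′ on the gene's strand.
BIRC3, chr11:102317234-102317483, plus strand: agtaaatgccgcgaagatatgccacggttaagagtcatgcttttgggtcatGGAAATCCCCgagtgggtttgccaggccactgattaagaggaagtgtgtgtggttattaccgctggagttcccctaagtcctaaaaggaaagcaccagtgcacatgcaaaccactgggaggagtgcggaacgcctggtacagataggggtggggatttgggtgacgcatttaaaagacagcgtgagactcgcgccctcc
NFKBIA, chr14:35404750-35404999, minus strand: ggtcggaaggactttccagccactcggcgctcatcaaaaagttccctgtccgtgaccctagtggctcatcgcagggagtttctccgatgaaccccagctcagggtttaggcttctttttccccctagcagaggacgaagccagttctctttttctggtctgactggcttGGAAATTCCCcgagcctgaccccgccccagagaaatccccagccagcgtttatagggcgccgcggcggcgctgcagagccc
TNFAIP3, chr6:137867009-137867258, plus strand: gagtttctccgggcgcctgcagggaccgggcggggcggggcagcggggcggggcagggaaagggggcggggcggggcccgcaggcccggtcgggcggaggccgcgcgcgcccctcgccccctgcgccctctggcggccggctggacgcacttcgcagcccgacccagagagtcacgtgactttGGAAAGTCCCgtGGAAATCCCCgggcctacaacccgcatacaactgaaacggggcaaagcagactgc
The matches started 199 bases before the start site in BIRC3, 81 in NFKBIA, and 67 and 55 in TNFAIP3. Of the 21 pathway genes with a listed promoter (80.8%), 10 held these letters (47.6%), against 2.54% of the 11639 tested genes. Of these 10, 8 rose, REL fell and NFKB1 was not called (0.09, adjusted p = 0.193). In the whole list 19 of 26 rose. The list was made up of NF-κB factors, feedback genes and targets, so the share with these letters describes the list. A match here is also not evidence of a bound factor.

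Secreted signals and their receptors were altered in both directions. Of 55 tested chemokines, interleukins and receptors, 34 rose (61.8%) and 12 fell. Chemokines were split, with 7 higher and 4 lower of 11. CXCL1, CXCL2, CXCL3 and IL8, neutrophil-attracting chemokines named after their values were seen, had log2 fold changes of 2.07, 1.32, 2.11 and 1.79. Their levels were low, and CXCL1 had 16, 16 and 15 counts in shControl and 67, 54 and 84 counts in shBMAL1. Of the interleukins and related cytokines, 9 of 14 rose and 1 fell. IL6, also named after its values were seen, had 51, 35 and 46 counts in shControl and 124, 141 and 167 counts in shBMAL1 (log2 fold change 1.66, SE 0.23, adjusted p = 4.1e-06), whereas IL32 had 119, 116 and 114 CPM in shControl and 71.3, 73.8 and 71.9 CPM in shBMAL1 (log2 fold change -0.68, SE 0.05, adjusted p = 1.26e-09). Receptors rose for 18 of 30 members. OSMR, the receptor subunit for oncostatin M, had 284, 264 and 266 CPM in shControl and 599, 569 and 595 CPM in shBMAL1 (log2 fold change 1.12, SE 0.04, adjusted p = 4.48e-15), and IL15RA had 4.39, 4.31 and 5.33 CPM in shControl and 14.7, 14.1 and 15.02 CPM in shBMAL1 (log2 fold change 1.64, SE 0.10, adjusted p = 1.62e-11). IL1RAP, the shared subunit of IL-1 receptors, rose by 0.97 on the log2 scale. ACKR3, a scavenging chemokine receptor, had 17.6, 20.2 and 22.1 CPM in shControl and 8.48, 7.75 and 9.38 CPM in shBMAL1 (log2 fold change -1.22, SE 0.09, adjusted p = 7.14e-10), and IFNGR1, a chain of the interferon gamma receptor, fell by 0.63.

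Ligands and receptors of the EGF family moved apart. ERBB receptors pair after binding EGF-type ligands or neuregulins and signal to the MAPK and PI3K pathways. Of 16 tested genes, 10 rose and 3 fell, and 8 of 9 ligands rose. For 4 of the 9 ligands the groups did not overlap, with shBMAL1 higher, as was so for 31.4% of all genes. BTC (6, 26 and 12 counts in shControl, 27, 32 and 38 in shBMAL1) was called higher but was low and overlapped. The same held for NRG4 (14, 20 and 10 counts in shControl, 31, 36 and 20 in shBMAL1). NRG1 had 11.3, 10.8 and 9.69 CPM in shControl and 27.5, 25.8 and 26.9 CPM in shBMAL1 (log2 fold change 1.34, SE 0.08, adjusted p = 1.6e-11), and NRG2 had 2.04, 2.58 and 2.36 CPM in shControl and 5.85, 6.24 and 6.26 CPM in shBMAL1 (log2 fold change 1.39, SE 0.14, adjusted p = 6.54e-08). HBEGF was low, at 0.300, 0.213 and 0.394 CPM in shControl and 0.790, 0.552 and 0.676 CPM in shBMAL1, and rose by 1.14 on the log2 scale. The rise of TGFA (0.12, adjusted p = 0.0926) and EGF (0.31, adjusted p = 0.0896) was small, with overlap between the groups, and TGFA did not pass under median-of-ratios scaling (0.11, adjusted p = 0.117). The number of genes of the family called higher was 6 without shControl replicate 3. The receptors went the other way or did not pass the test. In addition to ERBB3, ERBB2 had 105, 104 and 111 CPM in shControl and 59.7, 59.2 and 62.5 CPM in shBMAL1 (log2 fold change -0.82, SE 0.05, adjusted p = 1.63e-11), while EGFR had 271, 239 and 233 CPM in shControl and 241, 229 and 264 CPM in shBMAL1 and did not pass the test (log2 fold change -0.02, SE 0.07, adjusted p = 0.851). Among negative regulators, LRIG1 (0.81) and LRIG3 (0.87) rose and ERRFI1 fell (-0.67). Of the other receptor tyrosine kinases, 12 of 29 rose (41.4%, against 31.9% of all genes) and 11 fell (37.9%, against 31.5%). FGFR1 had 275, 276 and 263 CPM in shControl and 123, 124 and 120.1 CPM in shBMAL1 (log2 fold change -1.15, SE 0.04, adjusted p = 4.47e-15) and FGFR4 fell by 1.06, whereas the hepatocyte growth factor receptor MET had 409, 394 and 394 CPM in shControl and 963, 927 and 926 CPM in shBMAL1 (log2 fold change 1.23, SE 0.04, adjusted p = 8.13e-16). DUSP6, a phosphatase induced by ERK, had 1.05, 0.851 and 0.727 CPM in shControl and 5.97, 5.46 and 6.64 CPM in shBMAL1 (log2 fold change 2.78, SE 0.18, adjusted p = 8.21e-11). The MAPK output list as a whole had 8 lower (32%) and 9 higher (36%) of 25, near the shares of all genes (31.5% and 31.9%).

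**Figure D5:**
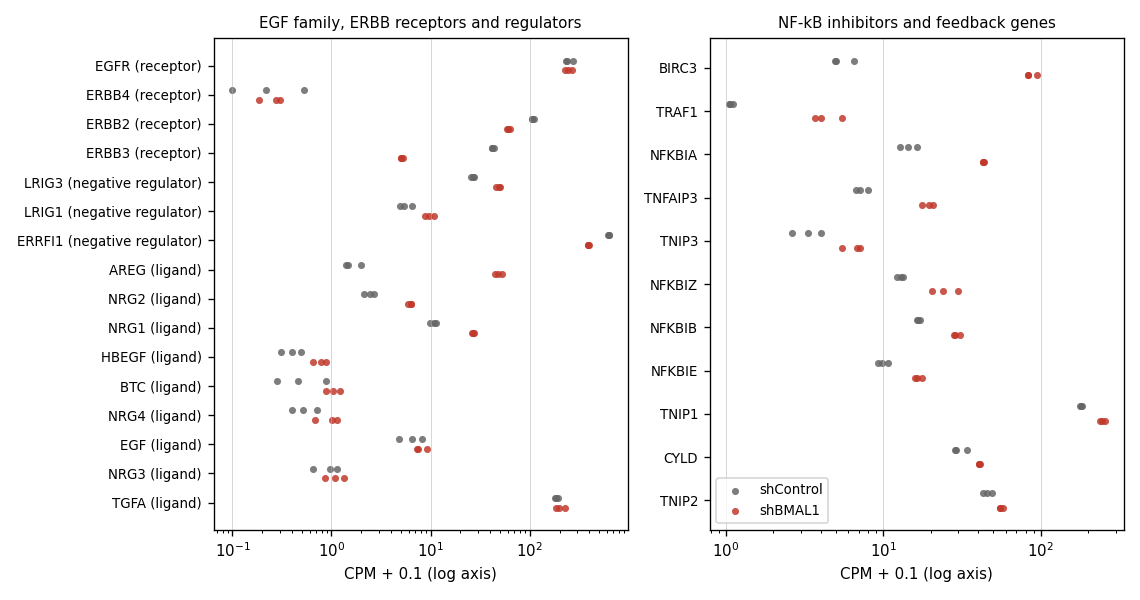
CPM plus 0.1 on a log axis in each shControl and shBMAL1 library for the 16 tested genes of the EGF family, its receptors and negative regulators (left) and for the 11 inhibitors and feedback genes of NF-κB (right). ERBB3 and ERBB2 lie lower and most ligands higher in shBMAL1, 4 of the 9 ligands without overlap (31.4% of all genes were higher without overlap). All 11 NF-κB genes lie higher.

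MHC class I presentation, which loads peptides from the proteasome on HLA molecules, was higher for 15 of 18 genes (83.3%) and lower for 1. The heavy chain HLA-B had 1107, 1127 and 1077 CPM in shControl and 1961, 2102 and 2039 CPM in shBMAL1 (log2 fold change 0.88, SE 0.04, adjusted p = 6.07e-14). B2M, the shared light chain, had 706, 689.9 and 691 CPM in shControl and 1012, 1098 and 968 CPM in shBMAL1 (log2 fold change 0.56, SE 0.04, adjusted p = 4.51e-10). HLA genes resemble each other closely, so reads may have been assigned among them unevenly. ERAP1, which trims peptides in the endoplasmic reticulum (ER), had 40.04, 38.8 and 41.8 CPM in shControl and 88.6, 92.1 and 95.1 CPM in shBMAL1 (log2 fold change 1.19, SE 0.06, adjusted p = 2.25e-12). TAPBP, which encodes tapasin, was the exception, with 228, 236 and 222 CPM in shControl and 154, 150.1 and 172 CPM in shBMAL1 (log2 fold change -0.53, SE 0.05, adjusted p = 1.44e-08). Of 54 interferon-stimulated genes, 29 rose (53.7%) and 12 fell. The transcription factors IRF1 (1.13) and IRF2 (1.08) and the antiviral gene TRIM22 (1.05) rose, and ISG20 (from 8.77, 9.29 and 7.84 CPM to 3.83, 5.08 and 4.00 CPM), OAS3 (-0.52) and IFITM3 (-0.39) fell.

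Several lists of protein folding and turnover were counted, beside 31.9% of all genes called higher and 31.5% called lower. Of 14 ER chaperones, 12 rose and 1 fell. The disulfide isomerase PDIA4 had 597, 576 and 595 CPM in shControl and 1033, 1076 and 1143 CPM in shBMAL1 (log2 fold change 0.88, SE 0.04, adjusted p = 3.34e-13). PDIA6 rose by 0.83 and calreticulin, encoded by CALR, by 0.63 on the log2 scale, while HYOU1 fell by 0.59. The sensors and factors of the unfolded protein response were split, with 3 higher and 2 lower of 8, as were ER degradation genes, with 2 higher and 2 lower of 7. Cytosolic chaperones rose for 13 of 24 and fell for 5, the CCT and prefoldin subunits rose for 7 of 14 and fell for 2, and autophagy genes rose for 17 of 35 and fell for 6. Of the 14 ATF4 targets, 9 rose and 3 fell, and the serine synthesis enzyme PSAT1 was among those that fell (-0.60). Proteasome subunits rose for 29 of 39 genes (74.4%), 16 of 18 in the 19S regulator, with PSMD1 at 144, 141 and 135 CPM in shControl and 211, 202 and 214 CPM in shBMAL1 (log2 fold change 0.58, SE 0.04, adjusted p = 6.28e-10). Cytosolic aminoacyl-tRNA synthetases, which charge tRNAs, rose for 13 of 20 and fell for 1. MARS had 88.9, 85.4 and 92.00 CPM in shControl and 151, 148 and 151 CPM in shBMAL1 (log2 fold change 0.76, SE 0.04, adjusted p = 1.02e-11) and VARS fell (-0.28). Of the NRF2 pathway genes, which protect from oxidants, 25 of 39 rose and 8 fell. SLC7A11, the cystine transporter, had 43.6, 45.8 and 44.96 CPM in shControl and 89.8, 84.9 and 96.9 CPM in shBMAL1 (log2 fold change 1.02, SE 0.06, adjusted p = 1.58e-11). HMOX1 ran against them, with 79.00, 81.6 and 78.8 CPM in shControl and 47.4, 53.6 and 56.3 CPM in shBMAL1 (log2 fold change -0.61, SE 0.06, adjusted p = 3.68e-08). Lysosomal genes rose for 36 of 63 and fell for 18, with HEXA (1.06) and LIPA (-0.86) at the ends of the named genes.

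Lipid and carbon metabolism changed gene by gene, beside 31.5% of all genes called lower and 31.9% called higher. Of 22 genes of fatty acid synthesis, 12 fell and 5 rose. Beside MLXIPL, the desaturase SCD had 2652, 2560.0 and 2449 CPM in shControl and 1060.1, 1045 and 1047 CPM in shBMAL1 (log2 fold change -1.28, SE 0.04, adjusted p = 2.38e-15) and the synthase FASN had 512, 486 and 553 CPM in shControl and 265, 251 and 286 CPM in shBMAL1 (log2 fold change -0.95, SE 0.05, adjusted p = 3.29e-12). The elongase ELOVL6 rose against this direction (log2 fold change 1.56, SE 0.06, adjusted p = 8.58e-14). Cholesterol synthesis genes fell for 11 of 25 and rose for 6, with SQLE (0.74) and INSIG1 (1.11) among the rises. In the tricarboxylic acid cycle, OGDH had 229.6, 221 and 221 CPM in shControl and 98.9, 98.98 and 97.1 CPM in shBMAL1 (log2 fold change -1.19, SE 0.04, adjusted p = 9.89e-15) and IDH2 fell by 0.86, while PDK4, which inhibits pyruvate dehydrogenase, rose (1.75). Of 23 glycolytic enzymes, 12 fell and 5 rose, and PGK1 (0.88) and LDHB (0.94) rose. The list medians in this group, from -0.21 for lipid droplet genes to 0.11 for the tricarboxylic acid cycle apart from the mitochondrial lists, were small beside the spread of their members.

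Genes of the cell surface and matrix also moved in both directions, as did all genes (31.5% lower and 31.9% higher). Fibrillar collagens fell for 5 of 7 genes and rose for 1, whereas basement membrane and other collagens were split with 8 lower and 9 higher of 20. COL6A1 had 1068, 1076 and 1081 CPM in shControl and 1852, 1927 and 1895 CPM in shBMAL1 (log2 fold change 0.82, SE 0.03, adjusted p = 2.29e-14). Integrins rose for 10 of 23 (43.5%) and fell for 7 (30.4%), and laminins rose for 2 of 11 (18.2%) and fell for 4 (36.4%). The integrins that rose were led by ITGB3 with 116, 116 and 121 CPM in shControl and 387, 359 and 386 CPM in shBMAL1 (log2 fold change 1.68, SE 0.04, adjusted p = 8.36e-17) and ITGA2 with 43.2, 38.6 and 38.5 CPM in shControl and 152, 149 and 166 CPM in shBMAL1 (log2 fold change 1.95, SE 0.06, adjusted p = 6.65e-16). Structural and matrix genes of the mesenchymal list fell for 14 of 23 and rose for 5. THBS1, a matrix protein that activates TGF-β, had 641, 605 and 643 CPM in shControl and 151, 153 and 148 CPM in shBMAL1 (log2 fold change -2.06, SE 0.05, adjusted p = 8.34e-17), and the collagen cross-linker LOX fell by 1.07 on the log2 scale. Tenascin C, encoded by TNC, opposed them with 30.9, 28.1 and 26.6 CPM in shControl and 133, 127 and 131 CPM in shBMAL1 (log2 fold change 2.19, SE 0.07, adjusted p = 1.65e-15). In TGF-β and BMP signaling, 20 of 49 fell (40.8%) and 16 rose (32.7%). ID1, a direct BMP target, was at 56.4, 56.9 and 59.2 CPM in shControl and 16.6, 21.3 and 21.3 CPM in shBMAL1 (log2 fold change -1.54, SE 0.08, adjusted p = 9.9e-13). COL1A1 and the pericyte receptor PDGFRB are also markers of fibroblasts and pericytes. The summed counts of the 5 markers of those cells were 7707 to 8093 in shControl and 1179 to 1283 in shBMAL1, nearly all from COL1A1. The others were scarce: DCN and PDGFRA did not exceed 10 counts, LUM had 0, and PDGFRB had 65, 82 and 71 counts in shControl and 17, 12 and 16 counts in shBMAL1.

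Among renal transport genes, the brush border proteins leaned lower. Of 17 brush border proteins, 11 fell (64.7%, against 31.5% of all genes) and 5 rose (29.4%, against 31.9%), with a median of -0.96. Of 23 solute transporters, 10 fell (43.5%) and 6 rose (26.1%), with a median of -0.06. PDZK1, a scaffold of apical transporters, had 102, 105 and 104 CPM in shControl and 37.6, 40.6 and 36.8 CPM in shBMAL1 (log2 fold change -1.43, SE 0.06, adjusted p = 8.44e-14). The peptidase neprilysin, encoded by MME, had 65.8, 64.4 and 61.1 CPM in shControl and 24.3, 24.1 and 25.1 CPM in shBMAL1 (log2 fold change -1.38, SE 0.07, adjusted p = 1.48e-12). VIL1, which encodes the microvillus protein villin, was named after its values were seen. It had 16, 8 and 12 counts in shControl and 0, 0 and 0 counts in shBMAL1, at least 12-fold lower when 3 counts over the group are taken as the limit behind 0. The water channel AQP3 (1.55), the sodium channel subunit SCNN1A (1.34) and the membrane linker EZR (0.89) rose. The transcription factor HNF4A, which maintains proximal tubule genes, had 302, 307 and 302 CPM in shControl and 143, 142 and 138 CPM in shBMAL1 (log2 fold change -1.11, SE 0.05, adjusted p = 8.88e-13). The kidney lineage transcription factors were mixed. Of 28 tested, 11 fell (39.3%, against 31.5% of all genes) and 8 rose (28.6%, against 31.9%).

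Single genes were compared between the depletions by the contrast of shBMAL1 with shARNT, which uses no control library. The lists were counted in this contrast and got no test of their own. In this contrast 40.1% of all genes were lower and 41.1% were higher in shBMAL1. Scaling by library size alone moved the median of all genes from 0.01 to -0.18, so list values are read against that shift. Replication genes were lower in shBMAL1 for 45 of 63 and higher for 11, with a median of -0.57. MCM4, for example, was at 95.9, 101 and 108 CPM in shARNT (difference -1.07, SE 0.05, adjusted p = 1.24e-13). Proteasome subunits were lower in shBMAL1 than in shARNT for 31 of 39 genes and NRF2 genes for 27 of 39. Genes of MHC class I were higher for 12 of 18, ribosomal proteins for 70 of 79, and the unfolded protein response list for 31 of 43. Under library size alone these counts were 52 lower replication genes, 35 and 30 lower genes of the proteasome and NRF2 lists, and 12, 62 and 25 higher genes of the last 3 lists. For mitosis genes, 45 of 79 were lower and 14 higher, with 56 and 10 under library size alone. Of 13 mitochondrially encoded genes, 4 were lower and 4 higher, with 7 and 0 under library size alone. Notch genes were 12 lower and 9 higher of 23. The EGF family had 6 lower and 7 higher of 16, and chemokines, interleukins and receptors had 11 lower and 33 higher of 55. NF-κB genes were divided, with 12 higher and 10 lower of 26, and the balance turned to 10 higher and 14 lower under library size alone, where their median was -0.13 in place of 0.06. BIRC3 was at 22.6, 23.1 and 22.5 CPM in shARNT (difference 1.93, SE 0.07, adjusted p = 1.8e-15), and AREG was at 2.17, 2.40 and 2.47 CPM (difference 4.34, SE 0.11, adjusted p = 1.63e-18). ERBB3 was at 4.87, 6.47 and 5.95 CPM in shARNT and was called slightly lower in shBMAL1 (difference -0.20, SE 0.11, adjusted p = 0.0935). EIF4E2 was also called lower in shBMAL1 (difference -0.10, SE 0.05, adjusted p = 0.078). SOD2 did not pass the test (difference 0.03, SE 0.05, adjusted p = 0.547).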

How the data were processed

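RNA from A498 cells was sequenced as stranded mRNA libraries in paired-end reads. According to the methods, the authors aligned reads to GRCh37 with SeqMan NGen and exported counts with ArrayStar, whereas the submitters' processing notes name STAR, DESeq2 and hg38. The deposited values were expected counts, total reads per gene without normalization, in which 0.05 stood for no reads. Annotation release, use of strand and handling of multiply aligned reads are not given in the sources used here.

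Here 0.05 was set to 0, 43 names held by more than 1 row were summed, and the expected counts were rounded. The table had 27716 rows, of which 28 carried a date as a name. Totals were 35269870 to 36099096 counts over the 9 libraries, and precision is limited by counting and replicate spread. All 9 libraries entered 1 fit in edgeR 4.0.16 (R 4.3.3) with TMM scaling, filterByExpr at its defaults and the quasi-likelihood test. Benjamini-Hochberg adjustment covered the 15551 genes tested. DESeq2 1.42.0 was an alternative. The common dispersion was 0.00311. Changes in total RNA per cell cannot be seen in these values. CPM is relative to the TMM-scaled library size, and TMM factors were 0.932 to 0.944 in shControl and 0.961 to 0.971 in shBMAL1.

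The gene lists and their members were chosen with earlier results of these data known, and lists got no test of their own. Named genes were BMAL1, among called genes of at least 3 log2 CPM without overlap between groups the 12 that fell most and the 12 that rose most, the 3 lower and 3 higher members of each list with the smallest p, and every tested member of lists with at most 20 members. Others are marked as named after their values were seen. Separation of the groups in genes chosen by size of change, by p or by their values follows from that choice and is not a result. Same-numbered shBMAL1 and shControl replicates did not deviate together (r = 0.04, 0.06 and 0.02 over 9752 genes). Replicates differed by more than sampling noise and were all kept. Promoters came from RefSeq (GRCh38.p14) and were found for 11639 tested genes (74.8%). They were used for letters only, and their coordinates were not mixed with the GRCh37 gene positions, which came from GENCODE v44 lifted to GRCh37. Motif shares are given only for lists with at least 80% of members matched. The fit was tested on simulated data. Some results are not reported here.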

Additional observations from a re-analysis of the deposited data

How the results depend on the processing

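Across DESeq2, other scalings, no filter, 6 libraries only, halved counts, removal of the trend with GC content and transcript length, a stricter threshold and leaving out each library, the counts of called genes overall and in the main direction of the 10 lists described first stayed within 1.5 times their reported values, except the EGF family count, which was 6 to 9 without 1 library. The lowest counts of called genes were 4365 lower genes under library size alone and 4555 higher genes at an adjusted p under 0.05, and the highest were 5098 lower genes without the GC and length trend and 5521 higher genes under library size alone. In no setting other than the GC and length trend, with 1 gene, was a gene called in the opposite direction. BMAL1 fell in each, from -1.77 to -1.57 without 1 library. The replicate block gave 4889 lower and 4942 higher genes and changed no list by more than its spread, and the numbers did not pair the samples. With scaling by library size alone, medians rose to 0.78 for NF-κB, 0.47 for MHC class I and 0.43 for chemokines. The NF-κB median was 0.73 under median-of-ratios size factors, 0.73 with 6 libraries only and 0.73 under DESeq2. Removing the GC and length trend gave -0.29 for Notch, -0.42 for mitosis, -0.48 for mitochondrially encoded genes and 0.76 for NF-κB, and it turned CCT8 to -0.10 and MAFK to 0.12, neither of which was called in the reported fit. Notch was -0.18 without the filter and -0.46 with 6 libraries only, and the EGF family was 0.81 with 6 libraries only and 0.81 with halved counts. The number of genes tested differs in these settings (21462, 15122 and 14551). Without 1 library the medians ranged from 0.69 to 0.76 for NF-κB, -0.41 to -0.27 for Notch, 0.36 to 0.45 for MHC class I, 0.33 to 0.43 for chemokines and 0.52 to 0.72 for the EGF family. The counts of shBMAL1 against shARNT under library size alone, chosen after seeing the data, were 7471 lower and 5287 higher. Low genes rest on few counts, and halved counts stand for the case that both mates of a pair were counted.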

Other observations

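Some gene families were not described above. The clustered protocadherins, adhesion molecules encoded in tandem on chromosome 5, were counted by cluster. Of the 15 alpha genes tested, 7 fell and 1 rose. Of the 13 beta genes, 9 fell and none rose, with a median of -0.76, and of the 18 gamma genes none fell and 3 rose. Over the 3 clusters the number that rose was 4, and it was 10 without shControl replicate 1. PCDHB2 had 19.6, 24.3 and 22.4 CPM in shControl and 10.6, 12.1 and 10.7 CPM in shBMAL1 (log2 fold change -0.99, SE 0.10, adjusted p = 2.53e-08), and PCDHGB1 had 11.7, 10.7 and 11.9 CPM in shControl and 22.6, 19.8 and 22.02 CPM in shBMAL1 (log2 fold change 0.91, SE 0.09, adjusted p = 5.84e-08). In the HOX clusters, which encode transcription factors of positional identity, 7 of 11 HOXA genes rose and 1 fell, and 3 of 8 HOXB genes rose and 1 fell. In the HOXC and HOXD clusters 3 of 8 genes each fell, a share (37.5%) near that of all genes called lower (31.5%), and none rose. Over the HOX genes 8 fell, and 5 did so without shControl replicate 3. HOXA9 had 11.7, 12.5 and 14.5 CPM in shControl and 22.6, 23.8 and 25.02 CPM in shBMAL1 (log2 fold change 0.88, SE 0.07, adjusted p = 3.91e-09), and HOXD10 had 12.8, 11.5 and 14.7 CPM in shControl and 9.18, 8.68 and 7.94 CPM in shBMAL1 (log2 fold change -0.59, SE 0.11, adjusted p = 7.15e-05). The members of these clusters resemble each other and lie side by side, so reads could be split between neighbors, and the difference between clusters was not tested. Zinc finger genes named ZNF fell for 136 of 399 and rose for 72, against 31.5% and 31.9% of all genes. ZNF629 had 23.9, 22.9 and 24.2 CPM in shControl and 11.7, 10.9 and 12.2 CPM in shBMAL1 (log2 fold change -1.03, SE 0.08, adjusted p = 8.66e-10).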
